A study of Homo sapiens with 12 samples.

Results

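Of the 666 genes in the deposited table, 69 carried no symbol and were known only by an Ensembl gene ID. These 69 genes were taken by that rule alone, without regard to their values, and are described here across all 12 libraries beside the 597 genes that had a symbol. The libraries came from cells that the labels name as HEPM, human embryonic palatal mesenchymal cells, and every gene ID was human, whereas the paper describes mouse palatal mesenchymal cells. The cells were transfected for 8 h with 1 of 4 plasmids, and each group had 3 libraries. The Vector group carried the empty plasmid, the MSX1 group wild type MSX1, the K139R group MSX1 with arginine in place of the lysine that the name gives, which cannot be acetylated, and the K139Q group MSX1 with glutamine there, which resembles acetylated lysine. Library names instead give both mutants a substituted arginine at another position, replaced by serine in the K139R group and by lysine in the K139Q group. The titles, which match the paper, were followed, so what both mutants are rests on the titles and the paper. MSX1 was expressed from a plasmid far above its own RNA level, so the comparisons are of excess MSX1, and the cells still held their own. The libraries do not show how much MSX1 protein each group held.

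MSX1 is a homeobox transcription factor of the palatal mesenchyme and acts mainly as a repressor. An Ensembl gene without a symbol is usually a locus that annotators found in transcript data and that has received no approved name. Many are long noncoding RNAs, and others are readthrough loci, in which transcription runs past the end of a gene and splicing joins its exons to those of the next gene on the same strand. Readthrough transcription is known to increase in stressed cells. Antisense RNAs start on the strand opposite to another gene, and some lower or raise that gene's output.

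The descriptions in the table begin by calling 49 of the 69 a transcript and 13 a protein, and 2 are empty. Some say more, among them 9 that say antisense and 3 that say readthrough. In GENCODE 29, on GRCh38, 46 of the 69 IDs were found, on 18 chromosomes, and 14 of the 46 were annotated as protein coding. By annotation alone the 69 fell into 16 joined-gene loci, whose exons cover those of 2 different genes on the same strand or whose description says readthrough, 7 copies that share at least 50% of their 31-base words with other genes, 18 loci opposite to another gene, 11 other loci in GENCODE 29 and 17 others. The 13 opposite-strand loci in GENCODE 29 shared a median of 0.0% of their words with transcripts of other genes. That is partly by rule, since words were compared in the same orientation only and loci sharing at least 50% were set among the copies. The joined-gene loci in GENCODE 29 shared a median of 90.3%. A read inside such shared exons fits both genes. A read across the joining splice tells them apart, as does a read in sequence that only the joined locus has. ENSG00000283515, for instance, shared 75.6% of its words. The splices are shown for the loci that the results turn on. In each line, the last 15 bases of the upstream exon are in lower case and the first 15 bases of the next exon are in capitals, 5′ to 3′ on the strand of the gene, from the GENCODE 29 transcripts, and the coordinates on GRCh38 run between the exon ends that are joined.
ENSG00000173867, DET1 to MRPL46, chr15:88465773-88511432, minus strand: ggaagtatgaaaatgATTGAGATAGAGAGA
ENSG00000283515, ZNF544 to AC020915.1, chr19:58246794-58285717, plus strand: aggaggccccccgagGAACCAGTGACCTTC
ENSG00000285565, HSPA1B to C6orf48, chr6:31829753-31835411, plus strand: aaggagctggagcagGAGTTGTAAGACGTT
ENSG00000283149, DNAJB11 to the pseudogene AC068631.3, chr3:186585381-186597054, plus strand: gggtcagtgcagaagGCCGAGTGGTTTGAG
ENSG00000256861, VPS33A to DIABLO, chr12:122218397-122232326, minus strand: agttggaagatggagAAATCAGAGCCTCAT
ENSG00000285304, SH3BP1 to PDXP, chr22:37653873-37665555, plus strand: acatggctcggaggaGCACCGGGAGCCTGG
ENSG00000271880, BMS1P3 to AL136982.4, chr10:87000434-87001636, plus strand: aaattcacatgccagGTATCTACTGAGCGT
The first 6 of these 30-base sequences occurred in no other gene's transcripts in GENCODE 29, and the last occurred in 1 other, AL136982.6. The table gives 1 value per gene, so how many reads crossed these splices is not known, and values of joined-gene loci and copies may include reads of the genes they overlap.

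The table lists genes that were picked for a difference between MSX1 and Vector in these same libraries. The mean was higher in MSX1 for 480 of them and lower for 186. Differences between those 2 groups are therefore a description of how the genes were chosen, and every comparison that uses MSX1 or Vector libraries shares in that choice. Only K139Q against K139R takes its difference from libraries that took no part in it. Its standard errors and p values still rest on the spread within all 4 groups, those of the listing included. MSX1 itself (ENSG00000163132) was at 20.28, 17.15 and 18.65 in Vector, 6553.80, 4672.09 and 6959.42 in MSX1, 13561.34, 7210.92 and 5811.91 in K139R and 8560.24, 13893.25 and 8006.32 in K139Q, in the order of replicates 1, 2 and 3. K139R replicate 1 and K139Q replicate 2 thus held the highest MSX1 values of all 12 libraries. Values are the authors' expression values, in steps of 0.01, recovered from their scaled table; the unit and the depth of the libraries are not stated, so no counting error can be given and levels of different genes are not ranked. The markers fixed for the palatal mesenchyme could not be checked, because 1 of 10 (COL1A1) is in the table, nor could those of other cells, of which 2 of 7 epithelial, 2 of 6 neuronal and 1 of 4 hematopoietic markers are. The summed values of the neuronal markers TUBB3 and RBFOX3 were 13.0 to 16.6 in Vector and 35.6 to 85.3 in the other groups, and those of EPCAM and KRT17 were 2.29 to 2.71 and 6.17 to 7.35. COL1A1 was at 3.60 to 5.14 in Vector and 5.29 to 12.5 in the other groups, and the hematopoietic marker CD68 at 0.24 to 0.72 and 1.18 to 3.40. Their part in the results was not tested. Bulk RNA cannot tell fewer cells of a type from less RNA per cell.

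The genes without a symbol leaned the other way from the rest of the table. In MSX1 against Vector, 45 of the 69 (65.2%) had the lower mean in MSX1, beside 23.5% of the 596 genes with a symbol whose values could be recovered. The median difference of log2(value + 1) was -0.57 over the 69 and 0.64 over the 596. The 19 long noncoding RNA genes that did have a symbol, recognised by name patterns such as LINC and -AS1, lay between, with a lower mean for 11 and a median of -0.30. Differences below are of log2(value + 1), which understates the change of low values, and were tested with limma over the 533 genes whose mean reached 1 in 1 or more groups. Of the 69, 55 were tested and 14 were too low. In MSX1 against Vector 41 of the 55 passed an adjusted p of 0.05, 17 higher and 24 lower, beside 89.9% of all genes tested, of which 67.7% were higher and 22.1% lower. In K139R against Vector 18 passed, 14 higher and 4 lower, beside 65.5% (60.0% higher and 5.44% lower). In K139Q against Vector 23 passed, 14 higher and 9 lower, beside 73.4% (64.0% higher and 9.38% lower). With quantile normalization, which gives each library the same spread of values, 7 of the 42 that then passed in MSX1 against Vector were higher and 35 lower. With that scaling 76.4% of the 55 passed beside 64.4% of all genes tested, against 74.5% beside 89.9% without it. In K139R against Vector it was 47.3% beside 36.4%, against 32.7% beside 65.5%, and in K139Q against Vector 45.5% beside 45.8%, against 41.8% beside 73.4%. Whether these genes pass less often than the rest therefore depends on the scaling. It also moved the median difference of all genes tested from 0.77 to 0.33, since the table holds more rises than falls. Of the differences from Vector named below, this scaling ended the call of 7 rises in MSX1 (the SH3BP1, BMS1P3 and FBXL8 joined loci, ENSG00000251095, ENSG00000272449, ENSG00000273590 and ENSG00000277701), 5 in K139R (the SH3BP1 and ZNF544 joined loci, ENSG00000261655, ENSG00000269993 and ENSG00000277701) and 7 in K139Q (the SH3BP1 and BMS1P3 joined loci, ENSG00000251095, ENSG00000261655, ENSG00000269993, ENSG00000273590 and ENSG00000293515), and it ended no fall.

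**Figure D1:**
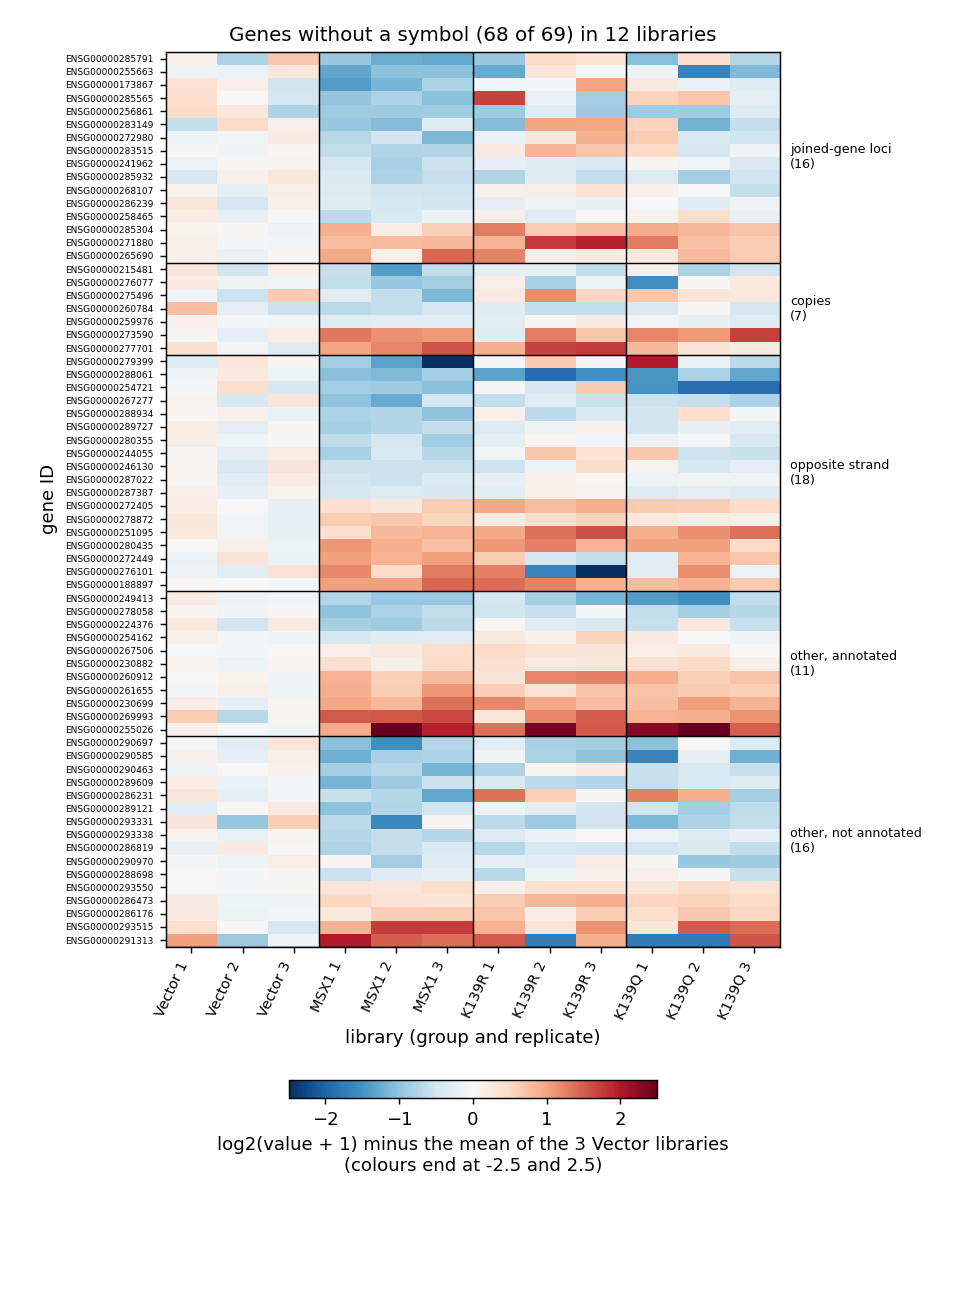
Genes without a symbol (68 of the 69, in rows by annotation class) in the 12 libraries (columns), with colour for log2(value + 1) minus the mean of the 3 Vector libraries. In the MSX1 columns 44 rows lie below 0 on average and 24 above, and in the K139R and K139Q columns many of the rows that are blue in MSX1 are paler or red.

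The fall seen in MSX1 was smaller in both mutants. The median over the 69 genes of the difference from the Vector mean was -0.53, -0.53 and -0.43 in the 3 MSX1 libraries, -0.02, 0.06 and 0.21 in the K139R libraries and 0.10, -0.01 and -0.25 in the K139Q libraries. All 3 MSX1 libraries were therefore below every mutant library. Over the 596 genes with a symbol the same medians were 0.69, 0.55 and 0.66 in MSX1, 0.68, 0.53 and 0.45 in K139R and 0.60, 0.67 and 0.48 in K139Q, and the groups overlapped. By means, 54 of the 69 were higher in K139R than in MSX1 and 48 were higher in K139Q than in MSX1, beside 337 and 352 of 665 genes in the whole table. Genes that were low in MSX1 had been listed for being so, and those with a symbol did much the same: of the 140 with a lower mean in MSX1 than in Vector, 130 were higher in K139R than in MSX1 and 128 in K139Q, beside 44 and 39 of the 45 without a symbol. The genes without a symbol are therefore not shown to differ from named genes that fell. In K139Q against K139R, which took no part in the listing, 47 of the 69 had the lower mean in K139Q, with a median difference of -0.14, beside 333 of 665 and a median of 0.00 in the whole table. Over the 596 genes with a symbol 286 (48%) had the lower mean in K139Q. Of the 45 without a symbol that had a lower mean in MSX1 than in Vector, 33 (73.3%) were lower in K139Q, with a median of -0.15. Of the 140 such genes with a symbol 93 (66.4%) were, with a median of -0.11. So were 12 of the 19 named long noncoding RNA genes. Whether these shares differ was not tested, and the lean is not shown to be particular to genes without a symbol.

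**Figure D2:**
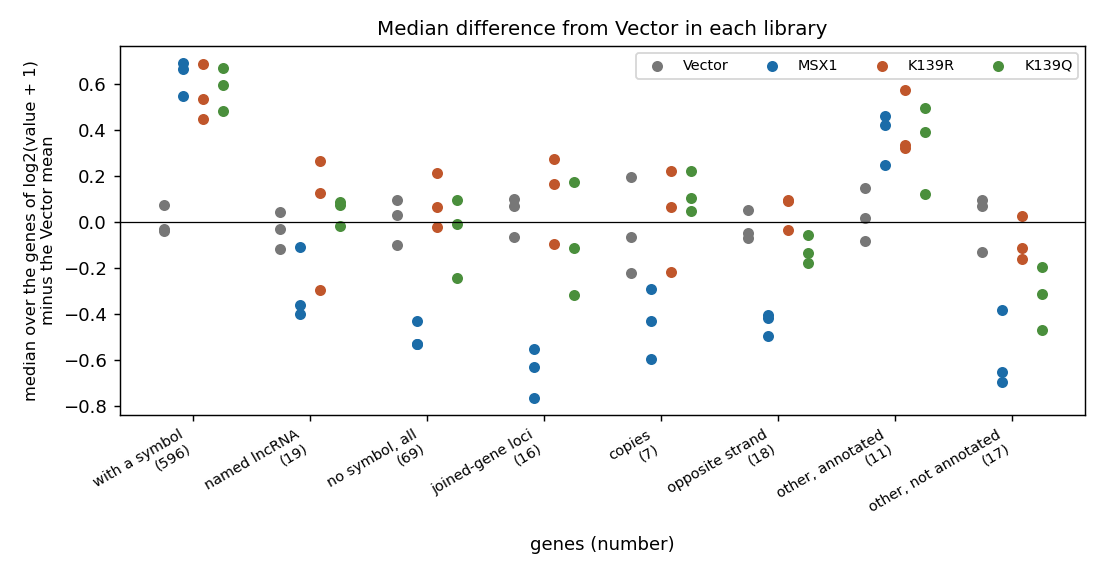
Median over each set of genes of log2(value + 1) minus the Vector mean, with 1 point per library and the number of genes in parentheses. The 3 MSX1 points of the genes without a symbol lie at -0.53, -0.53 and -0.43, below all K139R and K139Q points, whereas those of genes with a symbol lie at 0.55 to 0.69.

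Of the classes, the joined-gene loci had the most even direction. In MSX1, 13 of the 16 had a lower mean than in Vector, and 15 of the 16 were higher in K139R than in MSX1 and 15 in K139Q than in MSX1, beside the 130 and 128 of 140 given above for genes with a symbol that were lower in MSX1. The median difference of the class from Vector was -0.65 for MSX1, 0.21 for K139R and -0.10 for K139Q. There were 13 loci with a test, of which 9 passed in MSX1 against Vector (3 higher, 6 lower), 4 in K139R against Vector (3 higher, 1 lower), 4 in K139Q against Vector (2 higher, 2 lower) and 2 in K139R against MSX1, both higher. The shares of all genes tested in these comparisons were 89.9%, 65.5%, 73.4% and 4.32%. The K139R and K139Q libraries differed among themselves: 7, 9 and 11 of the 16 loci lay above the Vector mean in K139R replicates 1, 2 and 3, and 12, 7 and 3 in K139Q replicates 1, 2 and 3.

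ENSG00000173867 joins DET1, a component of a ubiquitin ligase complex, to MRPL46, a protein of the mitochondrial ribosome. Its values were 3.38, 2.65 and 1.36 in Vector, 0.27, 0.50 and 0.94 in MSX1, 2.30, 2.25 and 5.61 in K139R and 2.93, 2.0 and 1.69 in K139Q. The 3 MSX1 libraries lay below the other 9. The log2 difference was -1.12 in MSX1 against Vector (standard error 0.30, adjusted p = 0.0041 from limma) and 1.42 in K139R against MSX1 (adjusted p = 0.028 from limma), and the mutants did not pass against Vector. When the replicate number entered the fit as a block, the adjusted p from limma in K139R against MSX1 was 0.053 by the titles and 0.054 by the library names.

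ENSG00000283515 spans ZNF544, ERVK3-1 and ZNF8 on chromosome 19; ZNF544 and ZNF8 encode zinc finger proteins. It was at 0.92, 0.73 and 0.93 in Vector, 0.21, 0.10 and 0.12 in MSX1, 1.18, 2.35 and 2.01 in K139R and 1.63, 0.38 and 0.75 in K139Q. The MSX1 libraries were the lowest 3 and the K139R libraries were all above Vector. The difference was -0.70 in MSX1 against Vector, 0.59 in K139R against Vector and 1.29 in K139R against MSX1 (adjusted p = 0.011, 0.034 and 0.019 from limma, with a standard error of 0.23). The last was 0.038 with the block by titles and 0.053 by library names, and K139R against Vector was 0.049 and 0.055.

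Joined loci of chaperone genes varied widely within the mutant groups. ENSG00000285565 joins the exon of HSPA1B, an inducible HSP70 chaperone, to C6orf48, a host gene of small nucleolar RNAs. It was at 8.55, 6.10 and 4.29 in Vector, 2.60, 3.12 and 2.5 in MSX1, 22.02, 5.36 and 2.87 in K139R and 9.42, 10.53 and 4.99 in K139Q. All MSX1 libraries were below all Vector libraries, but the difference of -0.93 did not pass (adjusted p = 0.080 from limma), although with the replicate block it did (0.034 by titles and 0.031 by library names). ENSG00000283149 joins DNAJB11, a co-chaperone of the endoplasmic reticulum, to a downstream pseudogene. It was at 12.19, 27.33 and 21.31 in Vector, 9.56, 8.53 and 15.54 in MSX1, 8.62, 39.39 and 38.86 in K139R and 29.11, 7.95 and 12.36 in K139Q. K139R replicate 1 and K139Q replicate 2, with the highest MSX1 values, were among the 3 lowest libraries here, the groups overlapped and no comparison passed.

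ENSG00000255663 joins RBM7, an RNA-binding protein of the nuclear exosome adaptor, to REXO2, a mitochondrial exonuclease. It was at 3.93, 3.83 and 5.52 in Vector, 1.17, 1.63 and 1.63 in MSX1, 1.24, 5.75 and 4.46 in K139R and 3.98, 0.69 and 1.51 in K139Q. It was lower in MSX1 than in Vector by -1.12 (adjusted p = 0.017 from limma) and in K139Q by -0.96 (adjusted p = 0.041 from limma, but 0.053 and 0.057 with the block). In the mutants, K139R replicate 1 and K139Q replicates 2 and 3 were at or below the MSX1 values. ENSG00000272980 joins FGFR1OP, a centrosomal protein, to CCR6, a chemokine receptor, and was at 4.34, 4.65 and 5.93 in Vector, 2.65, 3.28 and 1.73 in MSX1, 4.26, 6.24 and 9.96 in K139R and 8.16, 3.57 and 3.23 in K139Q. It was lower in MSX1 than in Vector (-0.76, adjusted p = 0.032 from limma) and 1.10 higher in K139R than in MSX1 with an adjusted p of 0.059 from limma.

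ENSG00000256861, which joins VPS33A, a protein of endosome fusion, to DIABLO, a mitochondrial protein that promotes apoptosis, was at 1.59, 1.23 and 0.11 in Vector and listed at 0 in all 3 MSX1 libraries. It was listed at 0 in 2 of 3 libraries of each mutant as well, and the others were at 0.54 in K139R and 0.49 in K139Q, so no fold is given, and it was below the test's filter. ENSG00000285791, on chromosome 8, joins ADHFE1 to VXN and was at 2.25, 0.75 and 3.78 in Vector and 0.55, 0.27 and 0.24 in MSX1 (-1.16, adjusted p = 0.023 from limma). ENSG00000285932, which overlaps COX15, an enzyme of heme A synthesis, was lower in all 3 MSX1 plasmid groups, by -0.57, -0.56 and -0.57 (adjusted p = 0.026, 0.039 and 0.034 from limma), although each group overlapped Vector, and with the block by titles K139R against Vector was at 0.055. ENSG00000268107, which joins the zinc finger genes ZNF419 and ZNF773, had a difference of -0.44 in MSX1 that did not pass (adjusted p = 0.054 from limma), and ENSG00000258465, of PEX19 and DCAF8, had -0.40 (0.082). ENSG00000241962, of C2orf15 and MRPL30, and ENSG00000286239, of WDFY1 and AP1S3, were too low to be tested, with differences of -0.59 and -0.40.

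Of the 16, 3 joined loci rose in MSX1. ENSG00000285304 joins SH3BP1, a GTPase-activating protein, to PDXP, a phosphatase of vitamin B6, and was at 0.72, 0.67 and 0.48 in Vector, 2.0, 0.85 and 1.45 in MSX1, 2.92, 1.53 and 1.78 in K139R and 2.10, 1.88 and 1.67 in K139Q. All 9 libraries with an MSX1 plasmid were above all Vector libraries, by 0.56, 0.90 and 0.83 (adjusted p = 0.023, 0.0029 and 0.0039 from limma). ENSG00000271880, of BMS1P3 and its neighbours on chromosome 10, was at 1.37, 1.09 and 1.08 in Vector, 2.71, 2.77 and 2.81 in MSX1, 2.91, 6.26 and 7.24 in K139R and 4.36, 2.60 and 2.33 in K139Q. It rose by 0.79, 1.5 and 0.88 (adjusted p = 0.011, 0.00043 and 0.0081 from limma), and K139R replicates 2 and 3 were the highest libraries. ENSG00000265690 is in this class because it covers exons of FBXL8 and of HSF4, a heat shock transcription factor. No splice from FBXL8 to HSF4 was found in its longest transcript. This locus rose by 0.85 in MSX1 (adjusted p = 0.026 from limma). It was 0.54 above Vector in K139R and 0.56 in K139Q, and neither passed, although their libraries did not overlap those of Vector. Under quantile normalization none of these 3 rises in MSX1 passed (adjusted p = 0.31, 0.35 and 0.38 from limma for the SH3BP1, BMS1P3 and FBXL8 loci).

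**Figure D3:**
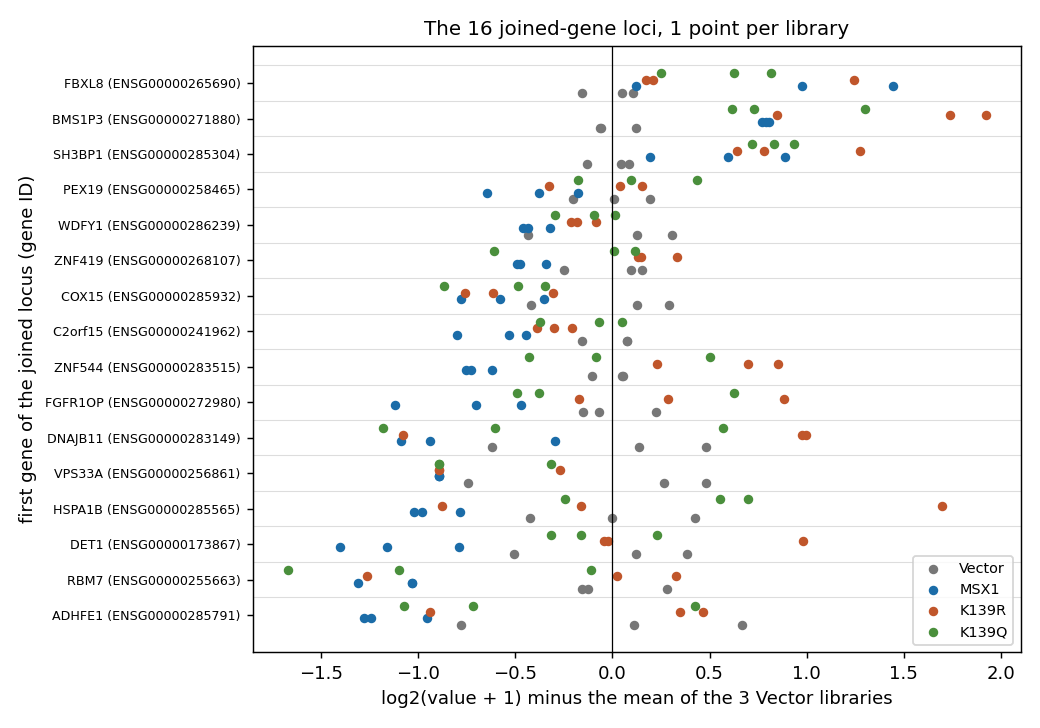
The 16 joined-gene loci (rows) with log2(value + 1) minus the Vector mean on the horizontal axis and 1 point per library. The MSX1 points (blue) lie left of 0 for 13 loci on average, and K139R and K139Q points of 1 locus often lie on both sides of 0.

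Between the forms of MSX1 few genes passed. In K139R against MSX1, 4 of the 55 tested passed, all higher in K139R, beside 4.32% of all genes tested (3.75% higher and 0.563% lower). Besides the DET1 and ZNF544 loci described above, they included ENSG00000275496.

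ENSG00000275496, a long noncoding RNA on chromosome 21 that shares 99.0% of its words with other genes, was at 5.11, 3.45 and 9.06 in Vector, 4.42, 3.29 and 1.99 in MSX1, 6.63, 13.77 and 8.26 in K139R and 9.31, 6.98 and 6.79 in K139Q. K139R was higher than MSX1 by 1.30 (adjusted p = 0.042 from limma, 0.064 and 0.072 with the block), and all mutant libraries were above all MSX1 libraries. This call was also absent with a pseudocount of 0.1 or 5, quantile normalization or a fit of only those 2 groups. With the block by titles 2 genes without a symbol passed in K139R against MSX1, the ZNF544 locus and ENSG00000286231, beside 1.13% of all genes tested. By library names none did, beside 0% of all genes tested. The count also rested on single libraries. Without K139R replicate 1, 23 of the 55 passed (20 higher, 3 lower in K139R), beside 26.1% of all genes. It was 10 without K139Q replicate 1, 2 without Vector replicate 1 and 0 without MSX1 replicate 1 or 2 or K139R replicate 2 or 3. The shares of all genes tested were 6.57%, 1.88% and 0% in these settings.

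In K139Q against MSX1 none of the 55 passed limma, beside 0.938% of all genes tested, and 18 had an unadjusted p under 0.05. This was so for 70 of the 533 genes in the whole table. It was so for 16 of the 36 tested genes without a symbol that had a lower mean in MSX1 than in Vector. For such genes with a symbol it was 33 of 113. Whether these shares differ was not tested. In K139Q against K139R 1 of the 55 passed, ENSG00000254721, beside 0.188% of all genes tested, since it was the only one of the 533 to pass. This RNA of 1011 exonic bases lies on chromosome 11, at 70206291 to 70207390 on the minus strand, wholly opposite to exons of FADD, the adaptor of death receptors. It was at 2.66, 4.09 and 1.86 in Vector, 1.07, 1.02 and 0.82 in MSX1, 2.64, 1.78 and 4.90 in K139R, and 0.35, 0.00 and 0.00 in K139Q. Every K139Q library was below all others, and K139R overlapped Vector. K139Q was lower than K139R by -1.82 (standard error 0.27, adjusted p = 0.0050 from limma, 0.018 and 0.024 with the block) and lower than Vector by -1.77 (adjusted p = 0.00016 from limma). FADD itself is not in the table. The call in K139Q against K139R was absent with a pseudocount of 5, quantile normalization or a fit of only those 2 groups, and a filter at a mean of 5 left the gene out. Exact permutation tests of 3 libraries against 3 gave p = 0.1 for each pair of groups that did not overlap, the smallest p they can give.

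**Figure D4:**
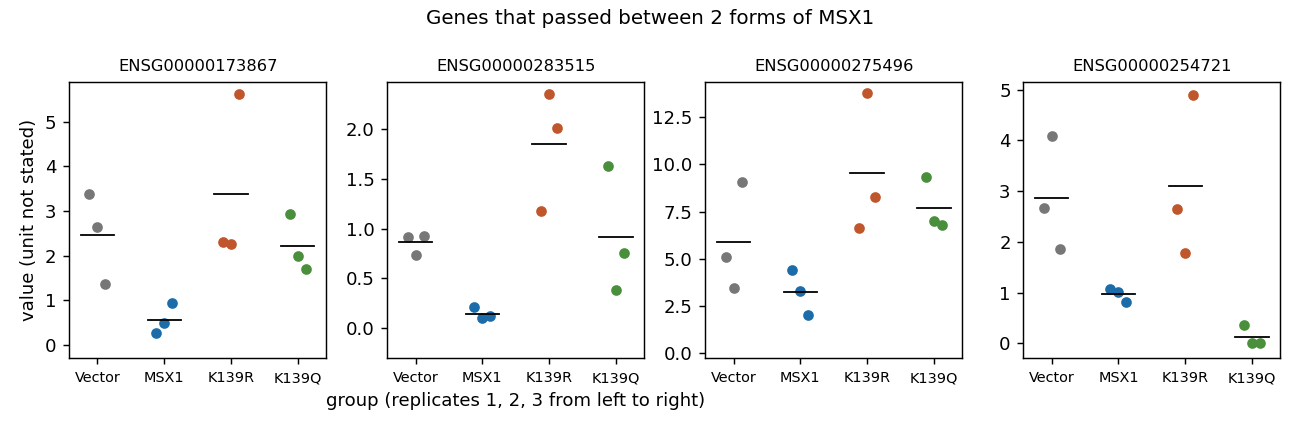
Values per library of 4 genes without a symbol that passed limma between 2 forms of MSX1, with the group mean as a line. In the first 3 panels the MSX1 libraries lie below the K139R libraries, and in the last the K139Q libraries lie at 0.35, 0.00 and 0.00.

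Of the 18 loci opposite to another gene, 12 of the 15 tested passed in MSX1 against Vector (5 higher, 7 lower), 5 in K139R against Vector (4 higher, 1 lower) and 7 in K139Q against Vector (4 higher, 3 lower). These are 80.0%, 33.3% and 46.7% of the class, beside 89.9%, 65.5% and 73.4% of all genes tested. ENSG00000288061, described as antisense to HSPA8, the constitutive HSP70 chaperone, and to CLMP, an adhesion protein, fell in all 3. It was at 7.69, 10.17 and 7.62 in Vector, 3.56, 3.38 and 4.26 in MSX1, 2.71, 1.48 and 2.28 in K139R and 2.43, 4.44 and 2.82 in K139Q, with no overlap with Vector. The differences were -1.0, -1.60 and -1.18 (adjusted p = 0.0012, 6.7e-05 and 0.0005 from limma, with a standard error of 0.21). ENSG00000251095, a long noncoding RNA of 6069 exonic bases, rose in all 3. It was at 2.03, 1.39 and 1.2 in Vector, 2.33, 3.44 and 3.58 in MSX1, 3.84, 5.52 and 6.69 in K139R and 3.67, 4.60 and 5.57 in K139Q. All mutant libraries were above all MSX1 libraries. The rises were 0.70, 1.31 and 1.14 (adjusted p = 0.0098, 0.00038 and 0.00075 from limma), and neither mutant passed against MSX1 (adjusted p = 0.095 and 0.41 from limma).

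A pair of loci without introns, each wholly opposite to exons of a protein-coding gene, had single libraries far from the rest. ENSG00000276101, opposite to SLC38A10, an amino acid transporter, was at 5.01, 4.24 and 7.28 in Vector, 13.71, 7.92 and 14.70 in MSX1, 14.34, 1.0 and 0.00 in K139R and 4.33, 13.34 and 4.80 in K139Q. K139R replicate 1 and K139Q replicate 2 were at the level of MSX1, the other mutant libraries were within or below the Vector range, and no comparison passed. ENSG00000279399, opposite to TMEM254, a membrane protein, was at 3.57, 6.13 and 4.98 in Vector, 2.21, 1.29 and 0.00 in MSX1, 4.70, 8.11 and 4.67 in K139R and 21.79, 4.20 and 2.61 in K139Q. Its difference of -1.58 in MSX1 against Vector passed (adjusted p = 0.017 from limma), and it was listed at 0 in MSX1 replicate 3. The library kit keeps the strand, but whether the counting used it is not stated, so reads of the opposite gene cannot be told apart from those of these loci.

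Of the 69 genes, 8 lay beside or within a named gene that was in the table too. ENSG00000261655, which the table describes as overlapping GPR20, an orphan G protein-coupled receptor, lies in GENCODE 29 on chromosome 8 just past the end of GPR20, on the same strand and without overlap. It was at 0.10, 0.23 and 0.04 in Vector, 1.09, 0.74 and 1.39 in MSX1, 0.72, 0.45 and 0.83 in K139R and 0.83, 0.76 and 0.69 in K139Q. GPR20 was at 0.17, 0.22 and 0.11, then 0.61, 0.62 and 0.94, then 1.0, 0.32 and 0.76, then 0.67, 0.71 and 0.74 in the same order. Both were above Vector in all 9 libraries with an MSX1 plasmid. The RNA rose by 0.88, 0.57 and 0.65 (adjusted p = 0.00072, 0.011 and 0.0048 from limma), and GPR20, below the filter, was 0.56, 0.52 and 0.55 above Vector. Over the 12 libraries, which share their group structure, Pearson's r of log2(value + 1) was 0.89.

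ENSG00000272449 starts on chromosome 1, 181 bases inside HES5, in its first intron, and runs the other way. HES5 is a repressor induced by Notch signalling. The RNA was at 2.36, 3.60 and 2.28 in Vector, 6.58, 5.76 and 6.64 in MSX1, 4.75, 1.80 and 1.40 in K139R and 2.04, 5.77 and 4.97 in K139Q. It rose in MSX1 by 0.98 (adjusted p = 0.013 from limma) and did not pass in the mutants, at differences of -0.13 in K139R and 0.43 in K139Q. HES5 was at 3.32, 2.30 and 3.79 in Vector, 9.82, 7.83 and 9.53 in MSX1, 9.10, 6.85 and 5.14 in K139R and 6.34, 10.73 and 9.35 in K139Q, and rose by 1.29, 0.94 and 1.24 (adjusted p = 0.00045, 0.0037 and 0.00064 from limma). K139R replicates 2 and 3 and K139Q replicate 1, the mutant libraries with the lowest HES5 values, had the RNA below Vector. The direct comparison of K139R with MSX1 did not pass for the RNA (-1.11, adjusted p = 0.065 from limma), and whether the 2 genes differ in their response was not tested.

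AGAP11, which shares 56.5% of the exonic bases of ENSG00000271880, followed another pattern than that joined locus. AGAP11 was at 1.97, 1.63 and 0.90 in Vector, 3.96, 2.19 and 5.28 in MSX1, 5.84, 2.15 and 1.06 in K139R and 3.95, 6.09 and 4.36 in K139Q. K139R replicates 2 and 3 were near Vector for AGAP11 and were the highest of all 12 libraries for ENSG00000271880. ADHFE1, a mitochondrial enzyme, and VXN, both exonic parts of ENSG00000285791, were lower in MSX1 than in Vector by -0.49 and -0.79 (adjusted p = 0.032 and 0.0055 from limma), as was the joined locus by -1.16. LYG1, opposite to the C2orf15 joined locus, fell by -0.90 in MSX1 (adjusted p = 0.0018 from limma), and the ribosomal protein pseudogene RPSAP18, within the PEX19 locus, by -0.99 (adjusted p = 0.0015 from limma). ENSG00000259976 lies wholly within an exon of ZBTB20, a transcriptional repressor. It was at 0.62, 0.43 and 0.41 in Vector and 0.21, 0.23 and 0.24 in MSX1, and ZBTB20 was at 0.43, 0.25 and 0.25, and 0.18, 0.14 and 0.05. Both were too low to be tested. ENSG00000278872, within an intron of GALNT9, a glycosyltransferase, was at 0.43, 0.13 and 0.02 in Vector and 0.84, 0.88 and 0.74 in MSX1, and GALNT9 was 0.44 above Vector (adjusted p = 0.085 from limma).

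**Figure D5:**
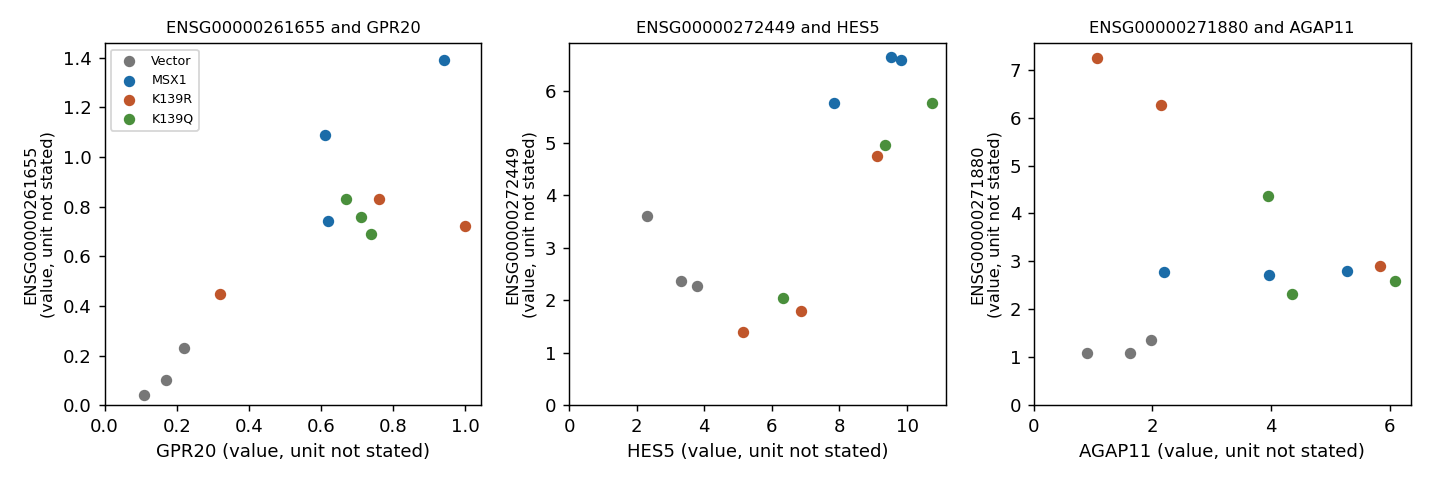
Values per library of 3 genes without a symbol (vertical axes) against the named gene beside or within them (horizontal axes), with 1 point per library, coloured by group. ENSG00000261655 and GPR20 are lowest in the 3 Vector libraries, and K139R replicates 2 and 3 are highest for ENSG00000271880 at low AGAP11 values.

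Among the 7 copies, ENSG00000273590 is annotated as SMIM11B, a small membrane protein that shares 91.5% of its words, mostly with SMIM11A. It was at 2.60, 2.01 and 3.0 in Vector, 7.76, 6.71 and 6.37 in MSX1, 1.86, 7.54 and 4.66 in K139R and 7.16, 6.39 and 10.45 in K139Q. It rose by 1.17 in MSX1 and 1.33 in K139Q (adjusted p = 0.0039 and 0.0025 from limma), and K139R overlapped Vector through replicate 1. ENSG00000276077, on chromosome 21 like ENSG00000275496 and with the same most similar gene, was at 6.46, 4.95 and 5.23 in Vector, 3.28, 2.40 and 2.65 in MSX1, 6.35, 2.69 and 4.93 in K139R and 1.22, 5.73 and 6.82 in K139Q. Here K139Q replicate 1 lay below the MSX1 libraries and K139R replicate 2 within their range, unlike in ENSG00000275496. ENSG00000277701, on chromosome 2 and found with 100% of its words in other genes, was at 5.81, 3.91 and 3.13 in Vector, 9.30, 11.02 and 14.27 in MSX1, 8.53, 15.76 and 16.38 in K139R and 8.08, 5.45 and 5.03 in K139Q. It rose by 1.26 in MSX1 and 1.44 in K139R (adjusted p = 0.0012 and 0.00076 from limma) but not in K139Q (0.45, adjusted p = 0.14 from limma). The K139Q libraries lay below all K139R libraries, and that difference of -0.99 did not pass (adjusted p = 0.34 from limma). Values of these copies depend on how reads that fit several places were assigned, which is not stated.

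The 11 other loci in GENCODE 29 were the only class with more rises than falls, 7 against 4 by the means of MSX1 and Vector. All 8 that were tested passed in that comparison, 5 higher and 3 lower, beside 89.9% of all genes. ENSG00000255026, of 860 exonic bases on chromosome 11, has the GENCODE 29 type antisense, but no gene there overlaps it on the opposite strand. It had the largest difference of the 55 tested in all 3 comparisons with Vector, in which it rose. It was at 0.51, 0.32 and 0.27 in Vector, 1.64, 8.08 and 4.25 in MSX1, 2.56, 6.06 and 2.95 in K139R and 5.63, 10.73 and 2.85 in K139Q. The rises were 1.88, 1.76 and 2.30 (adjusted p = 0.0017, 0.0037 and 0.00066 from limma, with a standard error of 0.43), and replicate 2 was the highest library of each MSX1 plasmid group. ENSG00000269993, a single exon on the X chromosome, was at 4.83, 1.30 and 2.90 in Vector, 9.89, 9.96 and 10.81 in MSX1, 3.63, 7.59 and 9.62 in K139R and 5.85, 5.94 and 7.13 in K139Q. It rose by 1.58, 1.0 and 0.96 (adjusted p = 0.00084, 0.015 and 0.016 from limma), and the MSX1 libraries were above all mutant libraries. ENSG00000249413, on chromosome 4, fell from 4.47, 3.40 and 3.61 to 1.88, 1.48 and 1.49 in MSX1, 2.56, 1.72 and 1.14 in K139R and 0.83, 0.65 and 2.14 in K139Q, by -0.88, -0.81 and -1.18 (adjusted p = 0.0052, 0.012 and 0.0013 from limma).

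Of the 17 other loci that were not in GENCODE 29, 13 were tested, and 9 passed in MSX1 against Vector (2 higher, 7 lower), 2 in K139R and 4 in K139Q, which is 69.2%, 15.4% and 30.8% beside 89.9%, 65.5% and 73.4% of all genes tested. ENSG00000289609 was at 21.42, 16.46 and 18.19 in Vector, 7.79, 9.38 and 12.41 in MSX1, 14.17, 11.48 and 10.81 in K139R and 12.11, 14.03 and 14.55 in K139Q. All libraries with an MSX1 plasmid were below Vector, by -0.87, -0.58 and -0.43, and the last of these did not pass (adjusted p = 0.0014, 0.017 and 0.056 from limma). ENSG00000293515 was at 1.27, 0.68 and 0.25 in Vector, 2.09, 4.65 and 4.65 in MSX1, 2.07, 1.13 and 2.67 in K139R and 1.08, 3.89 and 3.43 in K139Q. It rose by 1.46 in MSX1 and 1.08 in K139Q (adjusted p = 0.0021 and 0.013 from limma), and K139R did not pass (0.78, adjusted p = 0.063 from limma).

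The 3 pairs of genes without a symbol whose log2(value + 1) were most alike over the 12 libraries lay on different chromosomes, and the libraries share their groups, so these correlations are a description. They were ENSG00000230699 on chromosome 1 and ENSG00000188897 on chromosome 16 (Pearson's r = 0.951), ENSG00000254162 on chromosome 8 and the DET1 locus on chromosome 15 (0.942), and ENSG00000260912 on chromosome 9 and the BMS1P3 locus on chromosome 10 (0.926). ENSG00000230699 rose from 2.02, 1.35 and 1.76 in Vector to 4.28, 3.77 and 5.96 in MSX1, and ENSG00000188897 from 1.91, 1.79 and 1.72 to 4.73, 4.70 and 6.54. In both, the 3 Vector libraries lay below all 9 others. Values of 0 were few: 15 of the 828 values of the 69 genes, in 7 genes, were listed at 0.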

How the data were processed

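The authors isolated RNA, made poly(A)-selected stranded libraries and, per the paper's methods, trimmed the reads and counted them with featureCounts, whereas the labels name RSEM; the aligner, genome build and annotation are not given in the sources used here. The deposited table holds scores: the natural log of each expression value plus 1, centred and scaled to unit SD by the authors within each gene over 12 libraries. It has no counts. The values, in steps of 0.01, were recovered for 665 of 666 genes as the smallest set that gives back the scaled values to within 5e-12; log2 differences do not depend on that choice of multiple. The depth per library is not stated. Differences were tested with limma 3.58.1 (R 4.3.3) on log2(value + 1), all 12 libraries in 1 fit, genes whose mean reached 1 in 1 or more groups, p adjusted by Benjamini and Hochberg over 533 genes. The labels give same-numbered libraries of all groups 1 batch name, which is where the pairing comes from; same-numbered deviations correlated between -0.48 and 0.18 by titles, so the fit without a block is given and the blocked values where they change a call. Gene places came from GENCODE 29 (GRCh38), for names and places only. The RefSeq promoter table held no gene without a symbol, so no motif was counted. Genes were named by rule: in each comparison the 5 largest differences that passed or, where fewer passed, those and the smallest p, the 5 highest means, all joined loci, loci beside a named gene in the table, and genes at 0 in a whole group. 1 gene that the rule names is not reported here. Further genes were named after their values were seen (ENSG00000276077, ENSG00000286231 and the pairs most alike). The genes, lists and tests were chosen with earlier results of these data known. The fit was tested on simulated data with known changes.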

Additional observations from a re-analysis of the deposited data

How the results depend on the processing

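Among the genes without a symbol, no named difference that had passed was reversed under any alternative, and 19 of 53 kept their call under all of those that could test them; 129 of 1192 values under an alternative no longer passed, 21 of them with quantile normalization and 14 with a pseudocount of 5. With a mean of at least 5 in a group, 22 genes without a symbol were tested. Against Vector 14, 8 and 8 passed in MSX1, K139R and K139Q (63.6%, 36.4% and 36.4%), beside 92.4%, 75.3% and 81.2% of all genes tested. Between K139R and MSX1 1 passed (4.55% beside 4.12%), and between K139Q and K139R 0 passed, beside 0% of all genes tested. In K139R against MSX1, 2 passed with a pseudocount of 0.1, 1 with a pseudocount of 5, 13 with the deposited scaled values and 0 in a fit of only these groups. These are 3.64%, 1.82%, 23.6% and 0% of the 55, beside 1.5%, 1.69%, 10.3% and 0% of all genes tested. With the replicate block 2 passed by titles and 0 by library names, beside 1.13% and 0% of all genes tested. The block moved no other count by over 1.5 times. In K139Q against MSX1, 1 passed with a pseudocount of 0.1 and 2 in a fit of only these groups. These are 1.82% and 3.64%, beside 0.563% and 1.5% of all genes tested. In K139Q against K139R, 0 passed with a pseudocount of 5, with quantile normalization or in a fit of only these groups, beside 0% of all genes tested in each. Leaving out 1 library at a time gave 34 to 46, 15 to 22 and 19 to 25 against Vector, 0 to 23 in K139R against MSX1, 0 to 3 between K139Q and MSX1 (3 without K139Q replicate 3) and 1 to 4 in K139Q against K139R (4 without K139R replicate 1). Against Vector the shares of all genes tested were 80.1% to 93.1%, 54.8% to 67% and 61.4% to 76.4%. In the last 3 comparisons they were 0% to 26.1%, 0.375% to 1.88% and 0.188% to 4.88%. Without K139R replicate 1 and K139Q replicate 2 together, a setting chosen after seeing the data, 23, 1 and 2 passed in these 3 comparisons. The shares of all genes tested were then 30%, 1.31% and 0.563%.

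A check of GC content over the genes without a symbol is void, because 46 of 69 have a GENCODE 29 sequence. Depth, unit and read assignment are not stated, values near 0 carry unknown counting error, and the titles and library names of the MSX1 group number 2 of its 3 libraries differently.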
